A study of Mus musculus with 12 samples.

Results

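The 9 genes Ezh1, Ezh2, Eed, Suz12, Jarid2, Bmi1, Ring1, Rnf2 and Cbx2 encode subunits of the Polycomb repressive complexes, and they were taken by symbol from the 23284 gene symbols measured in RNA of mouse embryonic fibroblasts. The cells were secondary 1B fibroblasts, in which doxycycline (dox) switches on introduced reprogramming factors. The 3 arms differ in the transfected siRNA: siControl, siMyc, which targets c-Myc, and siGcn5, which targets Gcn5, the histone acetyltransferase of the SAGA complex (encoded by Kat2a). Each arm was taken without dox and after 2 days of dox. This gave 6 groups of 2 libraries, 12 in all. The labels do not list the introduced factors, give an siRNA dose for these libraries or say whether pools or single siRNAs were used. By the series' design text the dox-free cells are day 0, so that dox and the 2 days cannot be told apart. Dox was given in embryonic stem cell medium, and the protocols name the medium of dox-free cells for the chromatin experiments alone, so whether medium differed between these RNA libraries is not known here. No label ties the 2 libraries of a group to separate cultures, so the p-values measure only how these libraries vary, and that variation may be technical.

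Polycomb proteins keep developmental genes silent and work in a pair of main complexes. Polycomb repressive complex 2 (PRC2) methylates histone H3 at lysine 27: Ezh2 or its paralog Ezh1 is the catalytic subunit, Eed binds the mark and stimulates the enzyme, Suz12 is the scaffold that holds the core together, and Jarid2 is an accessory subunit that helps to bring PRC2 to its sites. Polycomb repressive complex 1 (PRC1) ubiquitinates histone H2A through the RING finger ligases Ring1 and Rnf2 (also known as Ring1b), with Bmi1 (Pcgf4) as one of the partners that activate them and Cbx2 as one of the chromodomain subunits that recognise the PRC2 mark. In fibroblasts Bmi1 and Ezh2 are best known as repressors of the Cdkn2a locus, and PRC2 subunits are abundant in embryonic stem cells. In dividing cells Ezh2 is known to follow the cell cycle through the E2F factors, whereas Ezh1 is known to persist in resting cells.

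The sequences upstream of Ezh2, Suz12 and Eed are shown because these genes fell together when Myc was depleted under dox. Cbx2 fell too, but no window was found for it. That of Bmi1 is shown because it alone, among the 8 members with a window, carries the canonical Myc binding motif there. The sequences were read from RefSeq in the mouse build GRCm38.p6, which is not the build of the expression files (mm9). They end at the base before the gene start. Ezh2 is on the minus strand at chr6:47595031-47595280, Suz12 on the plus strand at chr11:79992856-79993105, Eed on the minus strand at chr7:89980977-89981226 and Bmi1 on the plus strand at chr2:18676768-18677017. The last line is the 30 bases of Ezh2 around its E2F motif, which begins at base 4 of the gene, at chr6:47595009-47595038. Capitals mark the motifs that were searched. Sequences run 5′ to 3′.
Ezh2 upstream: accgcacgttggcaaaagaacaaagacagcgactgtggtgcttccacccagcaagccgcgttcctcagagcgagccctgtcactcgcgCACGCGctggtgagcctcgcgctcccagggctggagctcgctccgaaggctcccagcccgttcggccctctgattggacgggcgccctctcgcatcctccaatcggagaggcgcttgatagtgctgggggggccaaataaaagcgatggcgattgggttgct
Suz12 upstream: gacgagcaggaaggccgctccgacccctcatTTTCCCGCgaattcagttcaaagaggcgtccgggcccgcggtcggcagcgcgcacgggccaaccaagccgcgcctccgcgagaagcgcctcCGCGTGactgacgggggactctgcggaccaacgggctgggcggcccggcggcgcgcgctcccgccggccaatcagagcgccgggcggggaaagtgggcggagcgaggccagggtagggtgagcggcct
Eed upstream: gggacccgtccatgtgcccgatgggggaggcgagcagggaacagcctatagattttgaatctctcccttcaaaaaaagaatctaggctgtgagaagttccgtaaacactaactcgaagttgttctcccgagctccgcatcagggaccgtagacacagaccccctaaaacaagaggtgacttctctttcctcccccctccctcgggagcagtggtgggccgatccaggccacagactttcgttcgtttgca
Bmi1 upstream: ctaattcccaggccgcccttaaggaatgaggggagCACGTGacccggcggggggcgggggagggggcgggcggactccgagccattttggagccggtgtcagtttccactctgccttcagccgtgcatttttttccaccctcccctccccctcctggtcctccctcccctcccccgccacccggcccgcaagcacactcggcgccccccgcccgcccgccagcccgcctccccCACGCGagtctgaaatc
Ezh2 E2F motif: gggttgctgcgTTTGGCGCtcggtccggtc

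A window of 250 bases before to 50 bases after the gene start was found for 8 of the 9 members, all but Cbx2. The search took 3 motifs on both strands: the E-box CACGTG, which Myc and Max are known to bind, its variant CACGCG, and an E2F motif written as TTTGGCGC, TTTCCCGC, TTTCGCGC or TTTGCCGC. No matches in the members overlap. The E-box was in 7.17% of 32544 windows and in 1 member, Bmi1, at base -215. The variant was in 9.33% of windows and in 6 members, Ezh1, Ezh2, Suz12, Jarid2, Bmi1 and Ring1. The E2F motif was in 2.28% of windows and in 2 members, Ezh2 at base 4 and Suz12 at base -219. The members' windows held 17 to 41 CpG dinucleotides against a median of 7 over all windows. All 3 motifs, the E2F motif in each of its forms, contain CpG letters, so their shares are read with that in view. A match describes letters and not a bound site.

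Gene reads recovered per library ran from 65.5 M to 188 M, and a member had between 252 reads (Cbx2 in siGcn5 without dox, replicate 2) and 13674 reads (Ezh2 in siControl with dox, replicate 1), which gives a counting error of 6.3% to 0.855%. Levels are in RPKM, reads per kilobase of transcript scaled to library depth, so they can be compared between genes. The siRNA targets moved as labelled. Without dox the mean of Myc was 19.7 RPKM in siControl against 4.69 in siMyc, and with dox 165 against 21.6. Without dox the mean of Kat2a was 21.9 RPKM in siControl against 1.65 in siGcn5, and with dox 54.4 against 7.69. The other siRNA target had lower means too: Kat2a was 18.8 RPKM in siMyc with dox, and Myc was 8.20 in siGcn5 without dox and 116 with dox. Pou5f1, a reprogramming factor, was at 1.12 to 2.55 RPKM as group means without dox and at 268, 110 and 169 with dox in siControl, siMyc and siGcn5. The values do not separate endogenous from introduced copies of either factor. Pou5f1 with dox was lower in siMyc and siGcn5 than in siControl. Effects of an siRNA under dox, and on the dox response, therefore cannot be told apart from those of a lower level of the factors.

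Markers of cell identity moved with dox too. All 10 fibroblast markers were at 1 RPKM or more in every library, and their summed level was 9183 to 11409 RPKM without dox and 2890 to 5737 with dox. The 6 epithelial markers summed to 6.75 to 7.68 RPKM in dox-free siControl and siMyc libraries and to 36.9 to 42.7 in dox-free siGcn5 libraries, with Cdh1 at no more than 0.0348 and Krt18 at up to 36.7. With dox they summed to 457 to 522 in siControl, 1131 to 1245 in siMyc and 466 to 542 in siGcn5. Cdh1 was then at 4.97 or more and Krt14 at 311 or more. Krt18 did not follow them and had its highest library without dox (36.7) and its lowest with dox (4.63). The 6 late pluripotency markers summed to at most 1.55 RPKM in any library. Endothelial markers summed to 2.61 to 4.97 RPKM without dox and 7.86 to 12.1 with dox, with Tek at no more than 0.356 without and at 4.26 or more with dox, and Cdh5 at no more than 0.284 in any library. Kdr and Emcn went the other way, with their highest library without dox (2.70 and 1.79) and their lowest with dox (0.666 and 0.260). Blood markers summed to 2.27 to 3.42 RPKM without dox and 5.28 to 8.79 with dox, with Cd68 at no more than 2.51 without and at 3.23 or more with dox, Ptprc at no more than 0.149 and Cd3e at 0. Itgam was at no more than 0.0793 without and at 0.273 or more with dox, whereas Csf1r had its highest library without dox (0.890) and its lowest with dox (0.257). Of the skeletal muscle markers (37.9 to 256), Acta1 alone was above 0.169, of the neural markers (14.0 to 158) Tubb3 alone was above 0.378, and of the adipocyte markers (0.711 to 27.0) Fabp4 alone was above 0.0524, with Lep at 0. The part of these shifts in the Polycomb results was not tested. In bulk RNA, fewer cells of a type and less RNA per cell cannot be told apart.

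Among the PRC2 genes, Ezh2 had the widest response. Its siControl libraries had 21.5 and 18.6 RPKM before dox and 38.5 and 42.2 after. Those of siMyc had 17.9 and 15.6 before dox and 13.8 and 14.7 after. Those of siGcn5 had 9.97 and 12.8 before dox and 15.4 and 22.9 after. The siControl libraries with dox stood above all 10 others. The lowest group was siGcn5 without dox, followed by siMyc with dox, and neither of these overlapped the next group. The 3 groups between them and siControl with dox overlapped in a chain: siMyc without dox with siGcn5 with dox, and that with siControl without dox.

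Ezh1, the other catalytic subunit, was lower and steadier. The siControl libraries had 4.18 and 4.07 RPKM before dox and 5.80 and 5.54 after it, the siMyc libraries 5.38 and 5.03 before and 6.06 and 5.35 after, and the siGcn5 libraries 5.30 and 5.05 before and 7.04 and 6.97 after. Its lowest group was siControl without dox and its highest was siGcn5 with dox, and both stood clear of the rest. The dox-free siMyc and siGcn5 groups overlapped, and siMyc with dox overlapped both siControl with dox and dox-free siMyc. The balance of the catalytic subunits, as the ratio of Ezh2 to Ezh1 RPKM within a library, was 5.15 and 4.58 in siControl before dox and 6.64 and 7.61 after. It was 3.33 and 3.10 in siMyc before dox and 2.28 and 2.75 after, and 1.88 and 2.54 in siGcn5 before dox and 2.19 and 3.28 after. Every library of siControl thus had a higher ratio than every library of the other arms. This ratio was not tested.

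The other core subunits, Eed and Suz12, had different orders. Eed was the most abundant member in every library. It was at 29.8 and 28.7 RPKM in siControl before dox and 42.0 and 49.5 after, at 26.3 and 28.5 in siMyc before dox and 22.6 and 25.1 after, and at 38.5 and 39.8 in siGcn5 before dox and 46.9 and 49.6 after. Eed was high in siControl with dox and in both siGcn5 groups, where Ezh2 was not, and lowest in siMyc with dox. Only siControl with dox and siGcn5 with dox overlapped among neighbouring groups. Suz12 was at 14.4 and 13.6 RPKM in siControl before dox and 22.1 and 24.4 after, at 15.9 and 16.4 in siMyc before dox and 12.9 and 13.6 after, and at 12.2 and 12.7 in siGcn5 before dox and 14.2 and 15.8 after. As for Ezh2, siControl with dox stood above all other libraries. The other Suz12 groups lay close together, and siControl without dox overlapped both siMyc with dox and siGcn5 with dox.

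Jarid2, the accessory subunit, was higher with dox in every arm. It was at 2.09 and 2.00 RPKM in siControl before dox and 4.50 and 4.19 after, at 2.25 and 2.05 in siMyc before dox and 4.04 and 3.78 after, and at 3.31 and 2.75 in siGcn5 before dox and 3.65 and 4.00 after. All 6 libraries with dox stood above all 6 without. The dox-free siGcn5 libraries stood above the other 4 dox-free libraries, while siMyc with dox and siGcn5 with dox overlapped.

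The PRC1 ligases were high in different groups. Rnf2 was at 12.8 and 13.1 RPKM in siControl before dox and 12.0 and 13.2 after, at 13.6 and 13.5 in siMyc before dox and 11.0 and 10.5 after, and at 21.6 and 19.3 in siGcn5 before dox and 16.5 and 14.4 after. The highest libraries were those of siGcn5, above all others, and the lowest those of siMyc with dox. Ring1 was at 5.86 and 5.89 RPKM in siControl before dox and 5.74 and 4.94 after, at 7.40 and 5.85 in siMyc before dox and 8.72 and 7.45 after, and at 7.21 and 5.56 in siGcn5 before dox and 5.94 and 5.18 after. The siMyc libraries with dox were the highest for Ring1, and the other 5 groups overlapped one another in a chain. The ratio of Rnf2 to Ring1 was 1.26 and 1.41 in siMyc with dox, 2.99 and 3.46 in dox-free siGcn5, and 1.84 to 2.77 in the other 8 libraries. It was not tested.

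Bmi1, which activates the ligases, was at 12.5 and 11.4 RPKM in siControl before dox and 12.3 and 13.5 after, at 9.08 and 10.5 in siMyc before dox and 9.40 and 8.92 after, and at 16.4 and 15.3 in siGcn5 before dox and 15.0 and 13.3 after. Its arms separated more than its dox states: the 4 siMyc libraries were the lowest and the dox-free siGcn5 libraries the highest. Cbx2, the chromodomain subunit, had the lowest level of any member in the siGcn5 libraries, lay near Jarid2 in siControl and, on the log2(RPKM + 1) scale, had the widest range after Ezh2. It was at 2.59 and 1.97 RPKM in siControl before dox and 4.83 and 4.48 after, at 2.12 and 2.02 in siMyc before dox and 2.13 and 2.11 after, and at 0.800 and 0.780 in siGcn5 before dox and 1.28 and 1.88 after. The siControl libraries with dox were the highest and the 4 siGcn5 libraries the lowest, while both siMyc groups overlapped siControl without dox.

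**Figure D1:**
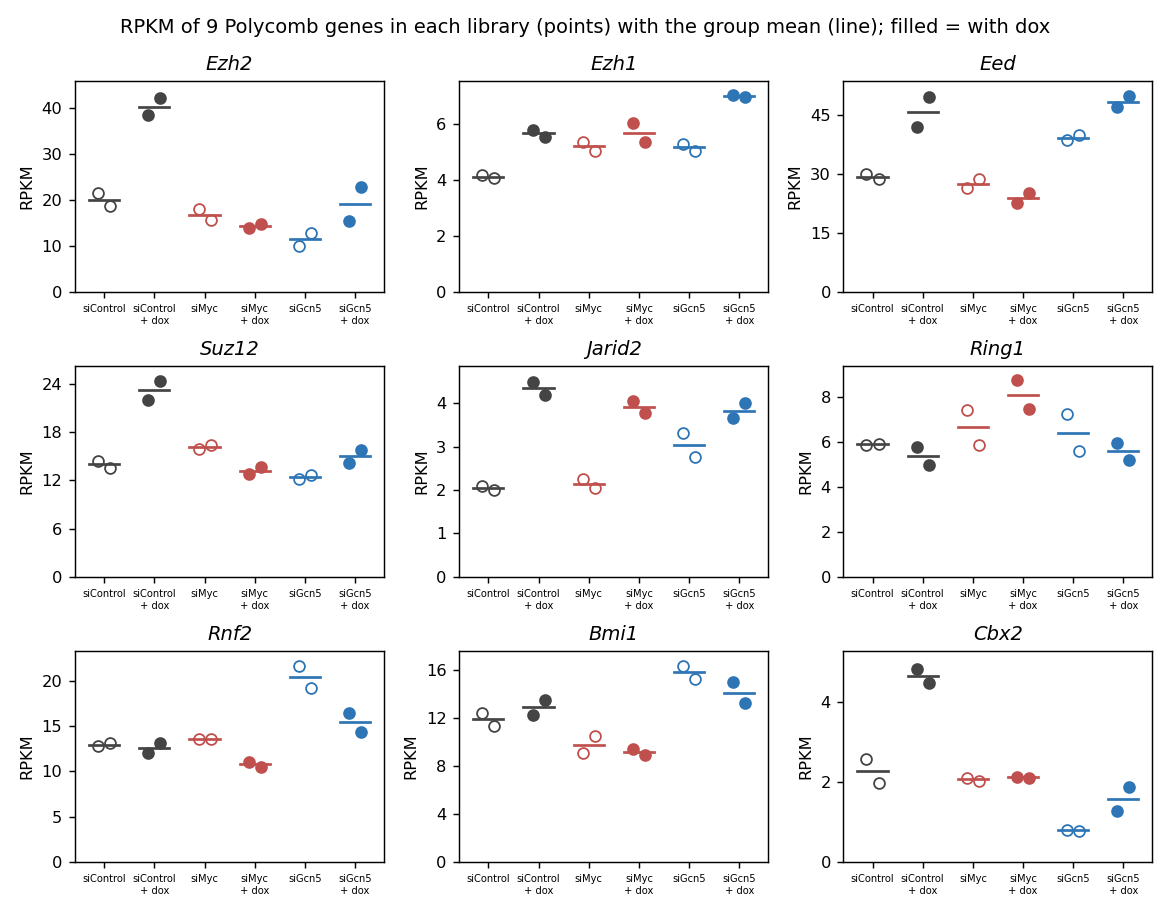
Each panel plots the RPKM of a member (vertical axis, from 0) in the 12 libraries by group (horizontal axis), with open points for libraries without dox, filled points for those with dox and a line at the mean of the 2 libraries. Ezh2, Suz12 and Cbx2 stand highest in siControl with dox, Rnf2 and Bmi1 stand highest in siGcn5 without dox, and Ring1 stands highest in siMyc with dox.

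Dox in siControl asks how the genes change when the factors are switched on. The catalytic, core and accessory PRC2 genes and Cbx2 rose, while the PRC1 ligases and Bmi1 did not pass the test. Ezh2 rose by 0.97 (SE 0.17, adjusted p 0.000386) on the log2(RPKM + 1) scale, from 20.1 ± 2.0 to 40.3 ± 2.6 RPKM (SD, n = 2). Jarid2 rose by 0.81 (SE 0.092, adjusted p 2.01e-05), Cbx2 by 0.79 (SE 0.12, adjusted p 0.000171), Suz12 by 0.69 (SE 0.080, adjusted p 2.38e-05), Eed by 0.62 (SE 0.089, adjusted p 0.000102) and Ezh1 by 0.38 (SE 0.081, adjusted p 0.00149). The change of Bmi1 was 0.11 (95% interval -0.11 to 0.32, adjusted p 0.33), that of Ring1 -0.12 (-0.43 to 0.19, adjusted p 0.452) and that of Rnf2 -0.04 (-0.23 to 0.16, adjusted p 0.717).

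A gene was called where limma's adjusted p over all 13175 genes tested was under 0.05, and all 9 members passed the filter for testing. Where a library is left out below, 1 remains in its group. The test is then weaker, and a call can be lost though the change is little altered. In this comparison 6 of 9 members were called, all higher, beside 74.0% of all genes called either way, 46.1% higher and 27.9% lower. The members' median was 0.62 and that of all genes 0.17. Against that median the changes were 0.80 for Ezh2, 0.64 for Jarid2, 0.62 for Cbx2, 0.52 for Suz12, 0.45 for Eed and 0.21 for Ezh1, and -0.07, -0.29 and -0.21 for Bmi1, Ring1 and Rnf2. The all-gene median depended on the scaling and was 0.03 with median-ratio scaling and near 0 with quantile normalization, under which 52.2% and 49.9% of calls were higher in place of 62.3%. With quantile normalization Rnf2 was called lower, at -0.23 (adjusted p 0.0267).

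Dox in siMyc gave another picture. Jarid2 rose by 0.64 (SE 0.092, adjusted p 0.000253), from 2.15 ± 0.14 to 3.91 ± 0.19 RPKM. Suz12 fell by 0.27 (SE 0.080, adjusted p 0.0189) and Rnf2 fell by 0.31 (SE 0.087, adjusted p 0.0147). For Ezh2 the change was -0.22 (95% interval -0.59 to 0.16, adjusted p 0.327), for Eed -0.19 (-0.39 to 0.00, adjusted p 0.102), for Cbx2 0.02 (-0.24 to 0.29, adjusted p 0.89) and for Ezh1 0.11 (-0.07 to 0.29, adjusted p 0.299). Bmi1 was at -0.08 (adjusted p 0.504) and Ring1 at 0.26 (adjusted p 0.16). Thus 3 of 9 members were called, 1 higher and 2 lower, beside 44.8% of all genes either way, 28.9% higher and 15.9% lower. The members' median was -0.08 and that of all genes 0.08, or -0.08 with quantile normalization. Of all calls 64.5% were higher, 54.7% under median-ratio scaling and 40.2% under quantile normalization. The Suz12 call was lost without siMyc without dox replicate 1 (adjusted p 0.0558) or replicate 2 (0.0925), and without siMyc with dox replicate 1 (0.106). That of Rnf2 was lost without either dox-free siMyc library (0.0631 and 0.0592) and without siMyc with dox replicate 2 (0.0853), and Eed was called lower with quantile normalization (adjusted p 0.0197).

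Dox in siGcn5 raised Ezh1, Ezh2, Eed, Suz12, Jarid2 and Cbx2 and lowered Rnf2. Ezh2 rose by 0.68 (SE 0.17, adjusted p 0.00573), from 11.4 ± 2.0 to 19.1 ± 5.3 RPKM, Cbx2 by 0.52 (SE 0.12, adjusted p 0.00452), Ezh1 by 0.37 (SE 0.081, adjusted p 0.00279), Eed by 0.30 (SE 0.089, adjusted p 0.0161), Jarid2 by 0.26 (SE 0.092, adjusted p 0.0312) and Suz12 by 0.25 (SE 0.080, adjusted p 0.0225). Rnf2 fell by 0.38 (SE 0.087, adjusted p 0.0036). Bmi1 was at -0.16 (adjusted p 0.187) and Ring1 at -0.16 (adjusted p 0.33). This made 7 of 9 members called, 6 higher and 1 lower, beside 58.4% of all genes either way, 36.0% higher and 22.4% lower. The members' median was 0.26 and that of all genes 0.08, or -0.07 with quantile normalization, and 61.6% of calls were higher, 49.2% under median-ratio scaling and 43.0% under quantile normalization.

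The calls of the smaller of these rises were lost under some scalings and without some libraries. Over the left-out libraries the change itself was 0.26 to 0.34 for Eed, 0.17 to 0.32 for Suz12 and 0.16 to 0.36 for Jarid2. Eed, Suz12 and Jarid2 were not called with median-ratio scaling (adjusted p 0.127, 0.184 and 0.108) or with quantile normalization (0.0694, 0.215 and 0.439), nor without siGcn5 with dox replicate 2 (0.0869, 0.15 and 0.153). Eed and Suz12 were also lost without siGcn5 without dox replicate 1 (0.0772 and 0.105), and Jarid2 without replicate 2 of that group (0.211). Ezh2 was at 0.52 (adjusted p 0.0529) without siGcn5 without dox replicate 1. Cbx2 was at 0.28 (adjusted p 0.084) with quantile normalization, and Bmi1 was called lower under both scalings (adjusted p 0.0375 and 0.0319). Suz12 and Jarid2 were not called with only these groups in the fit (adjusted p 0.0971 and 0.135), nor was Jarid2 with no filter (0.054).

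**Figure D2:**
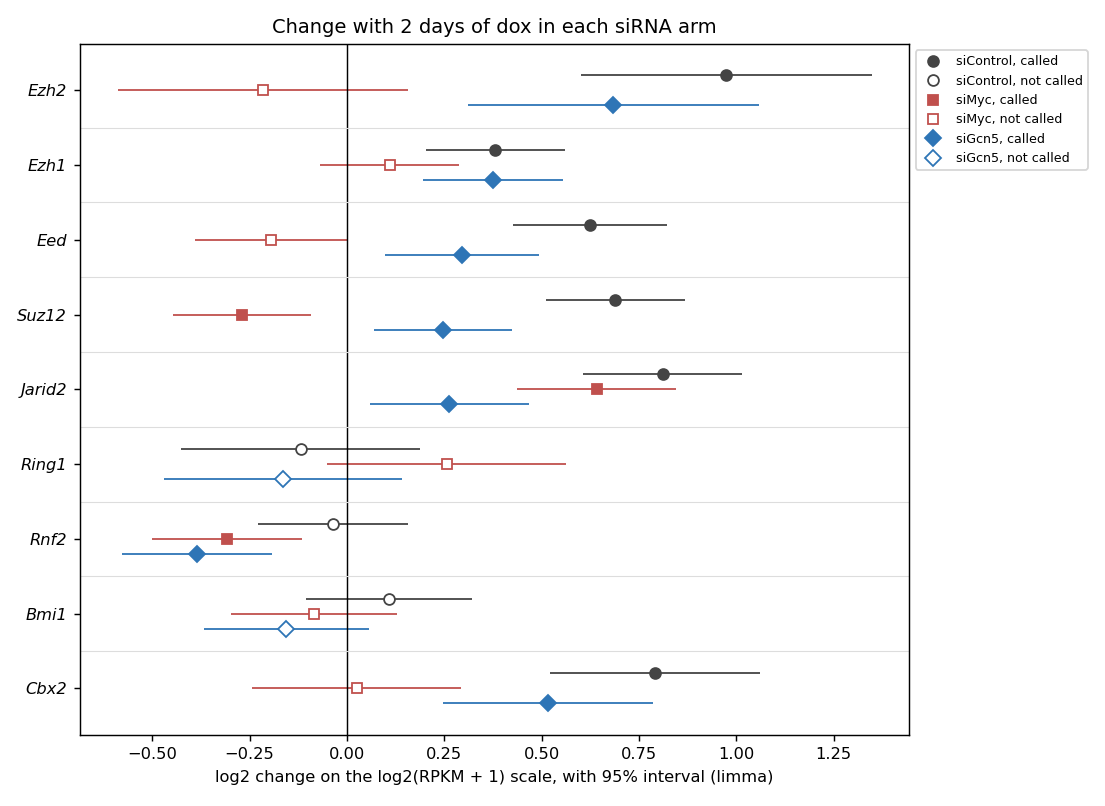
The horizontal axis is the log2 change with 2 days of dox on the log2(RPKM + 1) scale and each row is a member, with a bar for limma's 95% interval, circles for siControl, squares for siMyc and diamonds for siGcn5, filled where called. Ezh2, Eed, Suz12 and Cbx2 lie to the right of 0 in siControl and siGcn5 and near or left of 0 in siMyc, whereas Jarid2 lies to the right in all 3 arms.

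Depletion of Myc without dox moved 1 member past the test. Ezh1 rose by 0.28 (SE 0.081, adjusted p 0.0324), from 4.12 ± 0.077 to 5.20 ± 0.25 RPKM. Bmi1 was at -0.26 (95% interval -0.47 to -0.05, adjusted p 0.0763), Ezh2 at -0.25 (-0.62 to 0.13, adjusted p 0.32), Suz12 at 0.19 (0.02 to 0.37, adjusted p 0.108), and the other 5 between -0.09 and 0.14 with adjusted p of 0.499 or more. That is 1 of 9 members called, higher, beside 23.5% of all genes either way, 12.8% higher and 10.7% lower. The Ezh1 call was lost without either siControl library without dox (adjusted p 0.117 and 0.153), without either siMyc library without dox (0.193 and 0.0644) and with only these groups in the fit (0.0522).

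With dox most members were lower in siMyc than in siControl. Ezh2 fell by 1.44 (SE 0.17, adjusted p 2.24e-05), to 14.3 ± 0.62 RPKM against 40.3 ± 2.6 in siControl. Eed fell by 0.91 (SE 0.089, adjusted p 6.36e-06), Cbx2 by 0.86 (SE 0.12, adjusted p 8.98e-05), Suz12 by 0.77 (SE 0.080, adjusted p 1e-05), Bmi1 by 0.45 (SE 0.096, adjusted p 0.00148) and Rnf2 by 0.21 (SE 0.087, adjusted p 0.0483). Ring1 rose by 0.52 (SE 0.14, adjusted p 0.00594). Ezh1 was at 0.00 (95% interval -0.17 to 0.18, adjusted p 0.96) and Jarid2 at -0.12 (-0.33 to 0.08, adjusted p 0.245). The count was 7 of 9, with 6 lower and 1 higher, beside 74.9% of all genes either way, 37.7% higher and 37.1% lower. The members' median was -0.45 and that of all genes 0.02.

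The calls of Ezh2, Eed, Suz12, Cbx2 and Bmi1 held under every alternative tried, with adjusted p no higher than 0.0163. Rnf2 was at the edge of the threshold. It was not called with no filter (adjusted p 0.0548), with median-ratio scaling (0.141), with quantile normalization (0.0602), with only these groups in the fit (0.0706), or without any of 7 libraries: both of siControl without dox (0.067 and 0.0671), siControl with dox replicate 2 (0.238), both of siMyc without dox (0.0639 each), and both of siMyc with dox (0.0833 and 0.178). Ring1 was not called without siControl with dox replicate 2 (adjusted p 0.0513) or siMyc with dox replicate 1 (0.0531).

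Depletion of Gcn5 split the members in dox-free cells. Ezh2 fell by 0.77 (SE 0.17, adjusted p 0.00291), from 20.1 ± 2.0 to 11.4 ± 2.0 RPKM, and Cbx2 fell by 0.87 (SE 0.12, adjusted p 0.000216), from 2.28 ± 0.44 to 0.790 ± 0.014. In contrast Rnf2 rose by 0.62 (SE 0.087, adjusted p 0.000221), from 12.9 ± 0.25 to 20.4 ± 1.7 RPKM, with Eed at 0.41 (SE 0.089, adjusted p 0.00291), Jarid2 at 0.40 (SE 0.092, adjusted p 0.00392), Bmi1 at 0.39 (SE 0.096, adjusted p 0.00611) and Ezh1 at 0.27 (SE 0.081, adjusted p 0.0154), all higher. Suz12 was at -0.15 (95% interval -0.33 to 0.02, adjusted p 0.122) and Ring1 at 0.10 (-0.21 to 0.40, adjusted p 0.582). The count was 7 of 9, with 5 higher and 2 lower, beside 57.3% of all genes either way, 36.9% higher and 20.4% lower. All genes had a median of 0.11, or 0.01 with median-ratio scaling, and 64.4% of calls were higher, 49.5% under median-ratio scaling and 54.0% under quantile normalization. Against the median, Rnf2 was at 0.50, Eed at 0.29, Jarid2 at 0.29, Bmi1 at 0.27 and Ezh1 at 0.16.

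Under both of these scalings Ezh1 was not called (adjusted p 0.114 and 0.0618) and Suz12 was called lower (adjusted p 0.0184 under each). The Ezh1 call was also lost without siControl without dox replicate 1 (0.0544) or replicate 2 (0.08) and without siGcn5 without dox replicate 1 (0.0842), and that of Bmi1 without siControl without dox replicate 2 (0.0545). Ezh2, Cbx2, Rnf2, Eed and Jarid2 were called under every alternative tried, with adjusted p no higher than 0.0432.

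With dox, Gcn5 depletion left Ezh2, Cbx2 and Suz12 lower than in siControl. Cbx2 fell by 1.14 (SE 0.12, adjusted p 7.2e-05), to 1.58 ± 0.43 RPKM against 4.65 ± 0.25. Ezh2 fell by 1.06 (SE 0.17, adjusted p 0.000518) and Suz12 by 0.60 (SE 0.080, adjusted p 0.000213). Rnf2 rose by 0.27 (SE 0.087, adjusted p 0.0228) and Ezh1 by 0.26 (SE 0.081, adjusted p 0.0181). Eed was at 0.08 (95% interval -0.12 to 0.28, adjusted p 0.465), Jarid2 at -0.15 (-0.35 to 0.06, adjusted p 0.193), Bmi1 at 0.12 (adjusted p 0.297) and Ring1 at 0.05 (adjusted p 0.774). The count was 5 of 9, with 2 higher and 3 lower, beside 56.3% of all genes either way, 31.4% higher and 24.9% lower. Ezh1 and Rnf2 were not called with quantile normalization (adjusted p 0.0594 and 0.0556) or with only these groups in the fit (0.0825 and 0.0921), nor without siGcn5 with dox replicate 1 (0.0695 and 0.171). Ezh1 was lost without siControl with dox replicate 2 (0.0933), and Rnf2 without replicate 1 of that group (0.13) and with median-ratio scaling (0.0677).

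**Figure D3:**
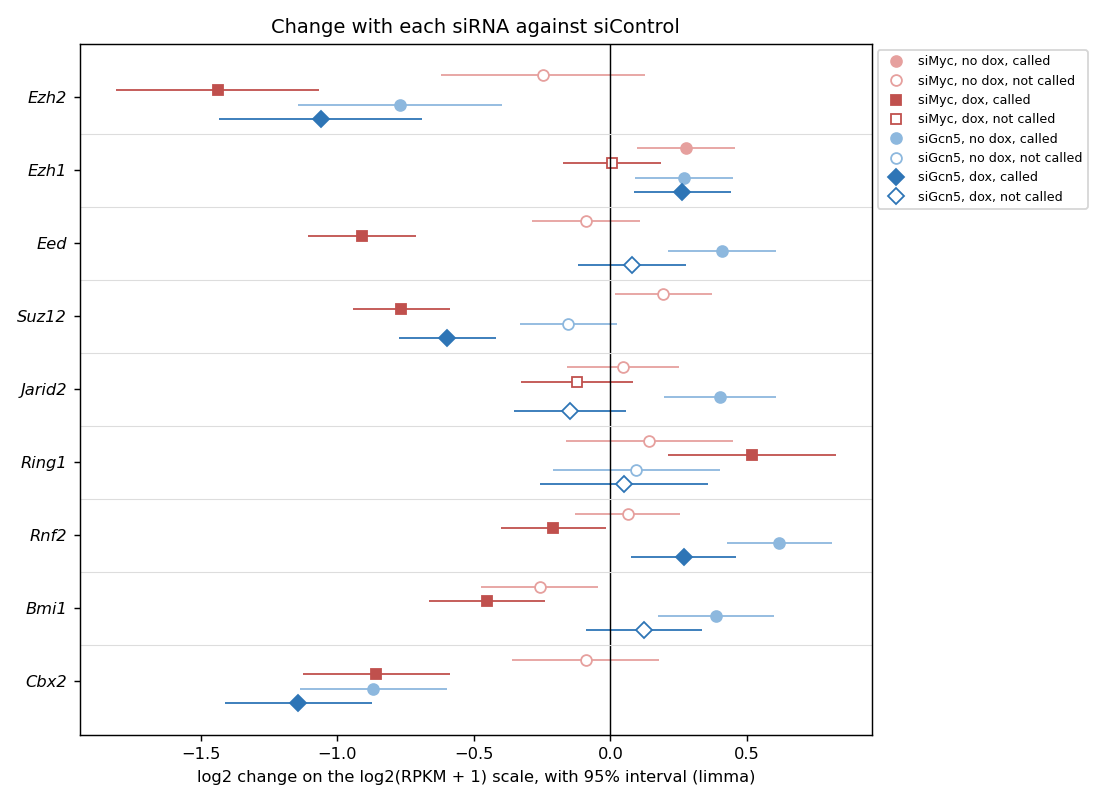
The horizontal axis is the log2 difference from siControl on the log2(RPKM + 1) scale and each row is a member, with limma's 95% interval, for siMyc (red) and siGcn5 (blue) without dox (pale circles) and with dox (dark squares or diamonds), filled where called. Ezh2 and Cbx2 lie left of 0 for siMyc with dox and for both siGcn5 comparisons, Eed is called lower for siMyc with dox alone, and Rnf2 lies right in both siGcn5 comparisons.

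The siMyc and siGcn5 comparisons share their siControl libraries, so the arms were also compared directly. Without dox, siMyc libraries had more Cbx2 (0.78, SE 0.12, adjusted p 0.000372), Ezh2 (0.52, SE 0.17, adjusted p 0.0209) and Suz12 (0.35, SE 0.080, adjusted p 0.00364) than siGcn5 libraries. They had less Bmi1 (-0.64, SE 0.096, adjusted p 0.000278), Rnf2 (-0.55, SE 0.087, adjusted p 0.000375), Eed (-0.50, SE 0.089, adjusted p 0.000832) and Jarid2 (-0.35, SE 0.092, adjusted p 0.00727). Ezh1 was at 0.01 (adjusted p 0.956) and Ring1 at 0.05 (adjusted p 0.793). This made 7 of 9 members, beside 58.7% of all genes. Of all calls, 37.8% were higher in siMyc, and 49.1% with median-ratio scaling. The Ezh2 call was lost without siMyc without dox replicate 1 (adjusted p 0.121) or siGcn5 without dox replicate 1 (0.163), and that of Jarid2 without siMyc without dox replicate 2 (0.0534) or siGcn5 without dox replicate 1 (0.0714).

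With dox the difference between the arms was widest for Eed, at -0.99 (SE 0.089, adjusted p 5.59e-06), with 23.8 ± 1.7 RPKM in siMyc and 48.2 ± 1.9 in siGcn5. Bmi1 (-0.57, SE 0.096, adjusted p 0.000388), Rnf2 (-0.48, SE 0.087, adjusted p 0.000671) and Ezh1 (-0.26, SE 0.081, adjusted p 0.016) were lower in siMyc, and Ring1 was higher (0.47, SE 0.14, adjusted p 0.0121). Ezh2 (-0.38, 95% interval -0.75 to 0.00, adjusted p 0.0697), Cbx2 (0.29, 0.02 to 0.55, adjusted p 0.059), Suz12 (-0.17, -0.34 to 0.01, adjusted p 0.0871) and Jarid2 (0.02, -0.18 to 0.23, adjusted p 0.824) did not pass. The count was 5 of 9, beside 65.9% of all genes. Of all calls, 41.4% were higher in siMyc, and 53.6% with median-ratio scaling.

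Several of these calls differed without 1 library or under 1 setting. Without siGcn5 with dox replicate 1, Ezh2 was called lower in siMyc, at -0.65 (adjusted p 0.00405), as was Suz12, at -0.24 (adjusted p 0.044), while Ezh1 was not called (0.0517). Ezh1 was also lost without siMyc with dox replicate 2 (0.131), with median-ratio scaling (0.167) and with only these groups in the fit (0.0843). Ring1 was lost without siMyc with dox replicate 1 (0.0923) or siGcn5 with dox replicate 2 (0.0717). Cbx2 was called higher without siGcn5 with dox replicate 2, at 0.46 (adjusted p 0.00795), without either siControl library without dox (adjusted p 0.0495 each) and with median-ratio scaling (0.0184).

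Whether an siRNA changed the dox response was tested as an interaction, the dox change in that arm minus the dox change in siControl. For siMyc it was -1.19 for Ezh2 (SE 0.24, adjusted p 0.00208), -0.96 for Suz12 (SE 0.11, adjusted p 0.000123), -0.82 for Eed (SE 0.13, adjusted p 0.000489) and -0.77 for Cbx2 (SE 0.17, adjusted p 0.00389), and these 4 were called under every alternative tried. Jarid2 was at -0.17 (95% interval -0.46 to 0.12, adjusted p 0.291). Ezh1 (-0.27, adjusted p 0.0661), Rnf2 (-0.27, adjusted p 0.0839), Bmi1 (-0.19, adjusted p 0.253) and Ring1 (0.37, adjusted p 0.128) were not called. The count was 4 of 9, all lower, beside 54.1% of all genes called either way. Of the 13175 genes tested, 3862 were called lower. Of all calls, 45.8% were above 0, and 55.3% with median-ratio scaling. Ezh1 was called with voom on recovered reads (adjusted p 0.0333) and without siMyc with dox replicate 1 (0.0476), and Rnf2 with only these groups in the fit (0.0475).

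For siGcn5 the interaction was -0.55 for Jarid2 (SE 0.13, adjusted p 0.0145) and -0.44 for Suz12 (SE 0.11, adjusted p 0.0191). The count was 2 of 9, each lower, beside 25.9% of all genes called either way. Of the 13175 genes tested, 1909 were called lower. Of all calls, 44.0% were above 0, and 57.0% with median-ratio scaling. For Ezh2 it was -0.29 (95% interval -0.82 to 0.24, adjusted p 0.387), for Eed -0.33 (-0.61 to -0.05, adjusted p 0.0776), for Rnf2 -0.35 (-0.62 to -0.08, adjusted p 0.0598), for Cbx2 -0.27 (-0.66 to 0.11, adjusted p 0.253), for Bmi1 -0.26 (adjusted p 0.171), for Ring1 -0.05 (adjusted p 0.881) and for Ezh1 -0.01 (adjusted p 0.971). The Jarid2 call was lost without siControl without dox replicate 2 (adjusted p 0.0557) or siGcn5 without dox replicate 1 (0.0548). The Suz12 call was lost without siControl without dox replicate 2 (0.0744), siControl with dox replicate 2 (0.0718) or siGcn5 with dox replicate 1 (0.0585), and under both scalings (0.0504 and 0.0588). Eed was called without siControl with dox replicate 1 (0.0317), and Rnf2 without siGcn5 without dox replicate 2 (0.0454) or siGcn5 with dox replicate 1 (0.0407).

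The counts of the lists that follow stand beside the shares of all genes given above: 46.1% higher and 27.9% lower for dox in siControl, 37.7% and 37.1% for siMyc with dox, 36.9% and 20.4% for siGcn5 without dox, and 31.4% and 24.9% for siGcn5 with dox. For dox in siMyc the shares were 28.9% and 15.9%, for dox in siGcn5 36.0% and 22.4%, and for siMyc without dox 12.8% and 10.7%. Of 6 further PRC2 subunits, 4 rose and 1 fell with dox in siControl, with a median of 0.41. The histone-binding subunits Rbbp4 (0.55, adjusted p 3.13e-05) and Rbbp7 (0.53, adjusted p 0.000771), the cofactor Aebp2 (0.28, adjusted p 0.0111) and the Polycomb-like protein Mtf2 (0.62, adjusted p 0.000218) rose, and the Polycomb-like protein Phf1 fell by 0.78 (adjusted p 0.00134), from 9.50 ± 0.17 to 5.14 ± 0.90 RPKM. In siMyc with dox, Rbbp7 (-1.09, adjusted p 4.73e-06), Rbbp4 (-0.57, adjusted p 2.11e-05) and Mtf2 (-0.49, adjusted p 0.0011) were among 4 lower than in siControl, and Phf1 (0.88, adjusted p 0.000588) was the 1 that was higher. With dox in siMyc 0 of the 6 were called by limma or by voom, and 1 had an unadjusted p under 0.05. With dox in siGcn5 3 rose and 1 fell. In siGcn5, Phf19, the third Polycomb-like protein, was at 0.319 ± 0.16 RPKM against 1.81 ± 0.38 in siControl without dox. Phf19 passed the filter through the siControl and siMyc libraries alone, so it had to be lower in siGcn5. For that reason no count of the 6 is given for siGcn5 against siControl.

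Of 22 further PRC1 subunits, 21 were tested. With dox in siControl 8 rose and 5 fell, with a median of 0.04, and neither share of the 21 exceeded that of all genes. The largest rises were in Pcgf6 (1.51, adjusted p 6.63e-06), its partner L3mbtl2 (1.32, adjusted p 1.1e-06), the CpG-binding Kdm2b (0.89, adjusted p 3.97e-05) and Rybp (0.54, adjusted p 0.000113). Pcgf5, Auts2, Bcorl1 and the chromodomain gene Cbx7 rose by less, the last by 0.34 (adjusted p 0.0178). Those that fell included Phc2, Phc3, Cbx6 and Scmh1. Pcgf6 went from 4.61 ± 0.0061 to 14.9 ± 0.98 RPKM in siControl and from 2.90 ± 0.41 to 3.46 ± 0.83 in siMyc. In siMyc with dox 10 were lower and 2 higher than in siControl (median -0.23), led by Pcgf6 (-1.85, adjusted p 1.56e-06), Kdm2b (-1.30, adjusted p 2.57e-06), L3mbtl2 (-1.17, adjusted p 2.09e-06) and Bcorl1 (-0.73, adjusted p 4.35e-05). In siGcn5 without dox 9 were higher and 1 lower (median 0.04), beside 36.9% and 20.4% of all genes. With dox 4 were higher and 6 lower, beside 31.4% and 24.9%. Among the 9, Cbx7 reached 1 RPKM in siGcn5 libraries alone. It thus passed the filter through the arm in which it was higher, and its higher level there was built in. The counts were 1 higher and 4 lower for dox in siMyc, 4 and 3 for dox in siGcn5, and 1 and 3 for siMyc without dox.

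Of 13 enzymes and cofactors that oppose Polycomb, 9 rose and none fell with dox in siControl (median 0.46), among them Dpy30 (2.00, adjusted p 1.44e-06), Wdr5 (1.10, adjusted p 4.79e-06) and Ash2l (0.79, adjusted p 0.000207), core subunits of the lysine 4 methyltransferases, and Kdm6a (1.51, adjusted p 9.11e-07), a demethylase of the PRC2 mark. Kdm6a went from 4.32 ± 0.0019 to 14.2 ± 1.1 RPKM. In siMyc with dox 9 were lower and none higher (median -0.70), with Dpy30 at -1.69 (adjusted p 3.94e-06), Wdr5 at -1.48 (adjusted p 7e-07), Ash2l at -1.12 (adjusted p 1.54e-05) and Kdm6a at -1.01 (adjusted p 1.11e-05). The list's medians thus lay on the same side of 0 as those of the 9 members in both comparisons, which share the siControl libraries with dox. In siGcn5 3 were higher and none lower without dox, and 1 was higher and 7 lower with dox. The counts were 1 higher and none lower for dox in siMyc, 6 and 1 for dox in siGcn5, and none and 2 for siMyc without dox. Where limma called none, voom and an unadjusted p under 0.05 also gave 0, other than 1 higher by both in siMyc with dox and 1 higher at an unadjusted p in siMyc without dox.

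Of 20 genes that Polycomb is known to repress in some cell type, 7 passed the filter for testing, so the counts describe these 7 alone. With dox in siControl 5 fell and none rose (median -0.47): Cdkn2b (-1.70, adjusted p 1.85e-07), Hoxc10 (-0.74, adjusted p 0.00229), Cdkn2a (-0.50, adjusted p 0.00761) and Tbx5 (-0.47, adjusted p 0.00175) were the most changed. Cdkn2b, an inhibitor of cyclin-dependent kinases, went from 36.6 ± 0.33 to 10.6 ± 1.2 RPKM. Against siControl no count is given, because Tbx5, Hoxd10 and Wt1 were under 1 RPKM in every siControl library and passed the filter through siMyc or siGcn5 libraries, where they had to be higher. In siMyc with dox, Cdkn2b was at 1.55 (adjusted p 3.39e-07) and the endoderm factor Gata6 at 1.54 (adjusted p 4.92e-06) against siControl. The limb and heart factor Tbx5 was at 1.61 ± 0.18 RPKM against 0.422 ± 0.11 in siControl with dox, and Hoxd10 at 0.965 ± 0.18 against 0.370 ± 0.030. For Tbx5 and Hoxd10 levels alone are given, for the reason above. Cdkn2a was lower, at 38.9 ± 6.9 RPKM against 53.4 ± 3.1. Cdkn2b was at 74.6 ± 3.5 RPKM in dox-free siGcn5. Dox in siMyc gave 1 higher and 3 lower, and dox in siGcn5 none and 4. Where limma called none of these targets, voom also called 0, as did an unadjusted p under 0.05.

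**Figure D4:**
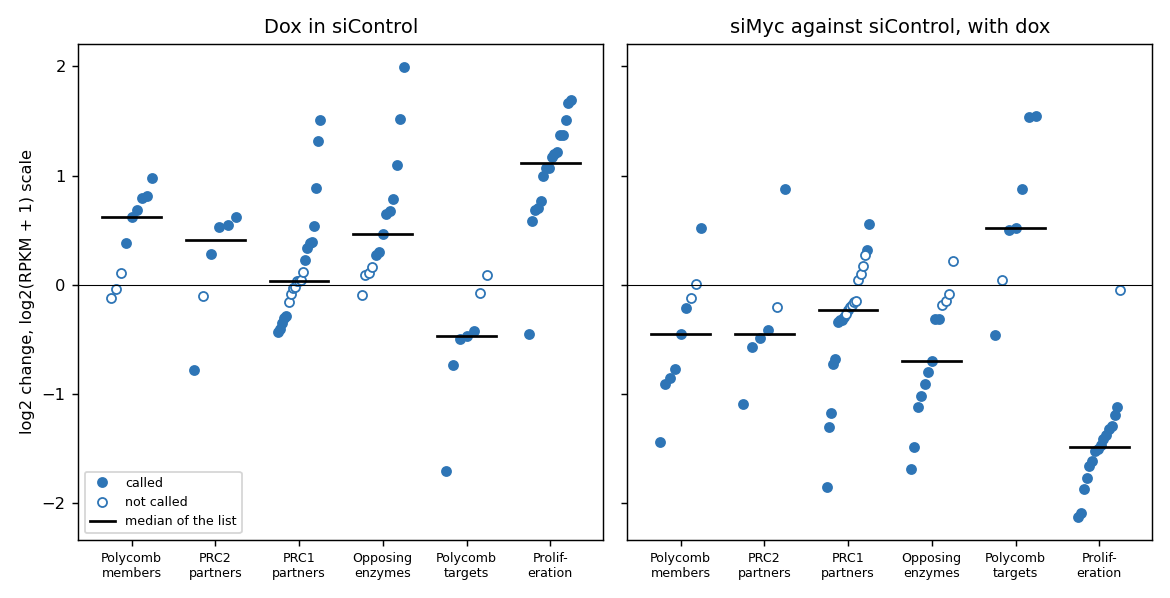
The vertical axis is the log2 change on the log2(RPKM + 1) scale of each tested gene (points, filled where called) for dox in siControl (left) and for siMyc against siControl with dox (right), by gene list, with a line at the median of each list. The 9 Polycomb members, the opposing enzymes and the proliferation genes have medians above 0 on the left (0.62, 0.46 and 1.12) and below 0 on the right (-0.45, -0.70 and -1.49). On the right the line of the Polycomb targets is not read, since Tbx5, Hoxd10 and Wt1 passed the filter through siMyc or siGcn5 libraries alone.

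Proliferation genes moved with several members. Of 16 genes of DNA replication and mitosis, 15 rose with dox in siControl (median 1.12), led by the replicative helicase subunits Mcm5 (1.69, adjusted p 0.000238), Mcm7 (1.66, adjusted p 3.12e-05), Mcm6 (1.51, adjusted p 3.27e-05) and Mcm3 (1.37, adjusted p 0.000257), and 1, E2f1, fell by 0.45 (adjusted p 0.0337). With dox in siMyc none rose, by limma, by voom or at an unadjusted p under 0.05, and 1 fell (median -0.22), and with dox in siGcn5 15 rose (median 1.12). Against siControl, 15 were lower in siMyc with dox (median -1.49), with Mcm5 at -2.13 (adjusted p 4.3e-05), Mcm7 at -2.09 (adjusted p 5.59e-06), the mitotic kinase Aurkb at -1.87 (adjusted p 0.00016) and the cyclin Ccnb1 at -1.77 (adjusted p 0.000932). Without dox 0 of 16 were called for siMyc by limma or by voom, and 0 had an unadjusted p under 0.05 (median -0.20). In siGcn5 14 were lower without dox (median -1.56) and 15 with dox (median -1.42). The interaction with dox was lower for 15 of 16 in siMyc (median -1.29) and called for 0 of 16 in siGcn5 (median 0.16), where voom also called 0 and 1 had an unadjusted p under 0.05.

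Along the 12 libraries, the centred level of Ezh2 (its log2(RPKM + 1) minus its mean) was 1.01 and 1.14 in siControl with dox, where the median of the proliferation list was 1.20 and 1.40. It was -0.84 and -0.50 in siGcn5 without dox, where the list was at -1.64 and -1.10, and -0.26 and 0.28 in siGcn5 with dox, where the list was at -0.33 and 0.28. Ezh2 and the list thus differed between the 2 siGcn5 libraries with dox in the same direction. Rnf2 was at 0.59 and 0.43 in siGcn5 without dox and at -0.20 and -0.08 in siControl with dox, opposite in sign to the list in both groups. This did not hold in all groups: in siMyc with dox Rnf2 was at -0.32 and -0.38 and the list at -0.30 and -0.10. The part of proliferation in the member changes was not tested.

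**Figure D5:**
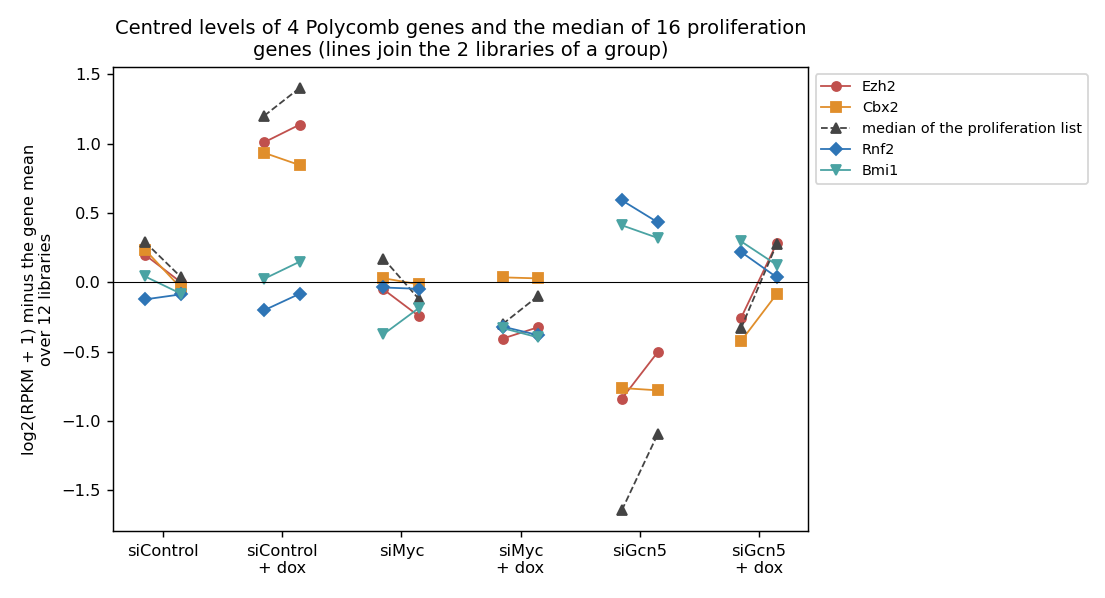
The vertical axis is log2(RPKM + 1) minus the gene's mean over 12 libraries and the horizontal axis the group, with a line joining the 2 libraries of a group, for Ezh2, Cbx2, Rnf2, Bmi1 and the median of the 16 proliferation genes (dashed). Ezh2, Cbx2 and the list are high in siControl with dox and low in siGcn5 without dox, where Rnf2 and Bmi1 are at their highest.

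The genes whose profiles lay nearest to Ezh2 and Cbx2, the members with the widest range of group means (1.75 and 1.66 on the log2 scale), were found by the root mean square difference of centred profiles over 12 libraries. Nearest to Ezh2 were BC055324 (0.07), 5730590G19Rik (0.09), the histone acetyltransferase Hat1 (0.09), the histone H3 lysine 9 methyltransferase Suv39h1 (0.09) and the kinase Vrk1 (0.11). Nearest to Cbx2 were the centromere chaperone Hjurp (0.09), BC030867 (0.10), the DNA polymerase subunit Pole2 (0.10), Gsg2 (0.11), which encodes the mitotic histone kinase haspin, and the clamp loader subunit Rfc2 (0.11). No member was among the 5 nearest of either. Among the members themselves the closest pairs were Bmi1 and Rnf2 (0.16), Ezh1 and Jarid2 (0.22), Eed and Bmi1 (0.23), and Ezh2 and Cbx2 (0.24), and the farthest pair was Ezh2 and Rnf2 (0.73). These distances describe the 12 libraries and carry no test.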

How the data were processed

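Total RNA of 12 libraries was sequenced after ribosomal RNA depletion with a stranded library kit on an Illumina HiSeq instrument, per the labels' protocols. The authors deposited 1 RPKM value per gene symbol and library. The submitters' processing notes name the build mm9 and the tools Bowtie 0.12.8, TopHat2 2.0.9, affy, edgeR and HTSeq. How strand was treated, and which annotation and filters were used, is not given in those notes. RPKM divides by the library total, so a change in RNA per cell is not measured. Whole reads were recovered from the steps of the RPKM values for 20787 of 20788 genes above 0 (tolerance 0.002 read) and serve for depth. On simulated data 99.8% of 20787 genes came back exactly. RefSeq lists genes that overlap Ezh2 (F830010H11Rik) and Cbx2 (Gm35829), and reads of such neighbours cannot be told apart without strand.

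Genes with RPKM of at least 1 in at least 2 of 12 libraries (13175) were tested on log2(RPKM + 1) with limma (3.58.1, under R 4.3.3), with a trend on intensity, 1 term per group, 6 residual and 4.17 prior degrees of freedom, two-sided, with Benjamini-Hochberg adjustment over all genes tested. The pseudocount of 1 makes a log2 change understate the change of low genes such as Cbx2 and Jarid2. The fit covered 11 comparisons: dox in each arm, each siRNA against siControl and against the other, without and with dox, and the interaction of each siRNA with dox. On data simulated for dox in siControl (12432 genes, 200 changed), 99.0% of genes changed by a fold of 2 and 67.7% of those changed by a fold of 1.5 were called, and 0.131% of unchanged genes. In the data 74.0% of genes were called in that comparison, far more than were changed in the simulation. The simulated shares therefore do not carry over to these data. Replicates correlated at Spearman 0.986 to 0.988 across genes and differed by more than sampling noise (chi-square per degree of freedom 33.7 to 92.6).

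The members and the lists were chosen with earlier results of these data known. Lists were PRC2 partners, PRC1 partners, counteracting enzymes, Polycomb targets, proliferation genes and 8 cell type marker lists. The text names all members, the siRNA targets and Pou5f1, up to 4 called genes of each list other than markers with the largest change in dox in siControl and in siMyc against siControl with dox, and the 5 genes nearest to Ezh2 and Cbx2. Aebp2, Phf19, E2f1, Cbx7, Pcgf5, Auts2, the named falling PRC1 subunits, Wt1 and single markers were named after their values were seen. Comparisons against siControl share its libraries. Alternatives were a pseudocount of 0.1, no filter, median-ratio scaling, quantile normalization, a replicate block, only the groups compared, voom on recovered reads (added after seeing the data) and leaving out each library.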

Additional observations from a re-analysis of the deposited data

Results flagged for a closer look

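In 6 cases the dox response of a member differed between an siRNA arm and siControl by the interaction test in limma. These were 4 of 9 members for siMyc beside 54.1% of all genes called either way, and 2 of 9 for siGcn5 beside 25.9%. Neither share of the members exceeded that of all genes called either way. All 6 were lower, however. Of 13175 genes tested, 3862 were called lower for siMyc and 1909 for siGcn5, smaller shares than those of the members. With 9 members no result about the set is read from these counts. For siMyc the interaction was -1.19 for Ezh2 (adjusted p 0.00208), -0.82 for Eed (adjusted p 0.000489), -0.96 for Suz12 (adjusted p 0.000123) and -0.77 for Cbx2 (adjusted p 0.00389): each of these genes rose with dox in siControl and did not rise in siMyc. For siGcn5 it was -0.44 for Suz12 (adjusted p 0.0191) and -0.55 for Jarid2 (adjusted p 0.0145), whose rises with dox were smaller than in siControl. These genes differed in where siGcn5 departed from siControl by limma. Jarid2 was higher without dox (0.40, adjusted p 0.00392) and not called with dox (-0.15, adjusted p 0.193). Suz12 was not called without dox (-0.15, adjusted p 0.122) and lower with dox (-0.60, adjusted p 0.000213). The siGcn5 cases were lost without some libraries, as given above.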

How the results depend on the processing

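Of 99 member results (9 genes in 11 comparisons), 54 were called, and 34 of these were called under all 19 alternatives (7 settings and 12 left-out libraries). Another 11 were lost under some setting and 19 without some library, in part the same results. Of 1881 values under alternatives 35 had another sign, none of them of a called result, and the largest of those results was 0.14 in size. The number of members called went from 7 to 4 with quantile normalization for dox in siGcn5, from 5 to 3 with quantile normalization and to 3 with only the groups compared for siGcn5 with dox, from 1 to 0 with only the groups compared for siMyc without dox, and from 2 to 1 under each scaling for the interaction of siGcn5. Over left-out libraries it ranged from 1 to 3 for dox in siMyc, 4 to 7 for dox in siGcn5, 0 to 1 for siMyc without dox, 3 to 5 for siGcn5 with dox, and 0 to 3 for the interaction of siGcn5. For all genes, leaving out 1 library moved the calls for siMyc without dox from 3098 to as few as 1072 (siMyc without dox replicate 1), with 1272 and 1387 without siControl without dox replicates 1 and 2. For the interaction of siGcn5 it moved them from 3409 to 1917 and 1677 without siControl without dox replicates 1 and 2, 1769 without siControl with dox replicate 2, 1734 without siGcn5 without dox replicate 1 and 2232 without siGcn5 with dox replicate 1. The cause was not tested. With voom the lists had 1 PRC1 partner higher and 7 lower for dox in siMyc in place of 1 and 4, 2 opposing enzymes higher in place of 1 and 2 proliferation genes lower in place of 1.

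The replicate numbers were not taken to pair the libraries, by a cut of 0.1 on the lowest correlation of same-numbered deviations. Over 15 pairs of groups these correlations ran from 0.0933 to 0.489. All of them were thus above 0, and whether same-numbered libraries share an effect was not tested. With the replicate block 7 more results were called and 0 lost: 5 members in place of 3 for dox in siMyc (Eed and Ring1 added), 6 in place of 4 for the interaction of siMyc (Ezh1, adjusted p 0.0281, and Ring1, 0.0206), 4 in place of 2 for the interaction of siGcn5 (Eed and Rnf2) and 6 in place of 5 for siMyc against siGcn5 with dox (Suz12). The planned edgeR test on recovered reads was not run, because the deposited values are RPKM, and voom on those reads was used in its place. At the lowest depth, 252 reads of Cbx2, counting error alone is 6.3%.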
